A study of Mus musculus with 4 samples.

Results

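The E2F family and its DP partners are 10 genes, 8 for E2F proteins (E2f1 to E2f8) and 2 for DP proteins (Tfdp1 and Tfdp2), and were followed in testes of mice lacking Taf7l. All probe sets whose annotation gives 1 of these genes and no other were taken, which made 21 probe sets of 45037 mouse probe sets and 10 genes of 18161. No probe set shared between a member and another gene was found. The family was selected on differences in log2 signal between knockout and wild type on these same arrays, so its differences are given as a description.

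RNA from whole testis was labelled and hybridised to 4 Affymetrix arrays. The 2 wild type arrays were of C57BL/6J males at 8 weeks of age, and the 2 Taf7l knockout arrays were of mutant males of the same age and strain, described as littermates. Neither group received a treatment, and the sources used here do not give how the Taf7l allele was made. One knockout array is labelled replicate 2 by its title but replicate 1 by its description, so the 2 arrays may not be separate animals, and every p-value covers only the spread between arrays. Taf7l, a germ cell relative of the TFIID subunit gene Taf7, read 829 and 818 in wild type against 80.6 and 72.5 in the knockout, the direction that the labels give. Whether its probes lie in the deleted part could not be checked.

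E2F proteins bind DNA as partners of a DP protein and set the timing of genes for DNA replication and cell division. Retinoblastoma family (pocket) proteins hold them in check until cyclin-dependent kinases release them. E2F1, E2F2 and E2F3 are grouped as activators, E2F4 and E2F5 as repressors that work with pocket proteins, E2F6 as a repressor that works with Polycomb proteins, and E2F7 and E2F8 as atypical repressors that bind DNA without DP. In the testis, spermatogonia and early spermatocytes replicate DNA, and E2F4 and E2F5 are known in the mouse for the multiciliated cells of the efferent ducts, which lie beside it.

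Each value below is a linear probe set signal, which has no unit and is not compared between probe sets. Probe sets were kept for testing when their mean over the 4 arrays reached 45.8, the median of that mean. Of the 21 member probe sets, 12 were kept, for 8 genes, and 9 were not. Over the 12, 10 were higher and 2 lower in the knockout, with a median log2 difference of 0.12. Over all 22519 kept probe sets the median was −0.05 and 39.99% were higher. The 10 included 3 probe sets each of E2f5 and Tfdp2, which are not independent, and E2f1 at a difference of 0.0047. None of the 12 was called by limma at an adjusted p under 0.05. The fit called 1.39% of all kept probe sets (0.444% higher and 0.941% lower). An unadjusted p under 0.05 was reached by 2 of the 12 and by 5572 of all 22519 kept probe sets. The count of member probe sets called became 1 under 6 of 16 alternatives, each time through 1 E2f5 probe set. The groups did not overlap at 6 of the 12, 4 with the knockout above and 2 below, where 55.0% of all kept probe sets did not overlap, 18.7% with the knockout above and 36.3% below. In RNA from whole testis, fewer cells of a type and less RNA per cell cannot be told apart.

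**Figure D1:**
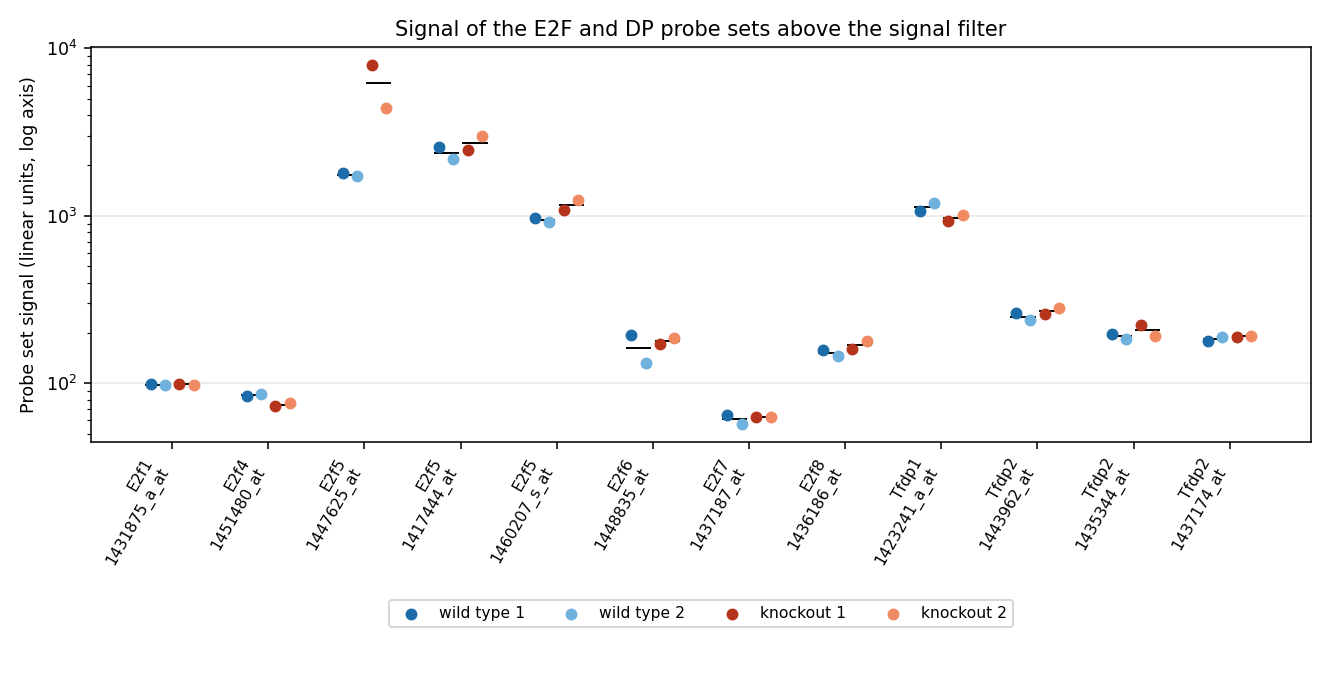
Signal on each of the 4 arrays (vertical, linear units on a log axis) for the 12 kept probe sets of the E2F and DP genes, with black bars at the mean of each group of 2 arrays. The E2f5 probe set 1447625_at stands at 7928 and 4428 on the knockout arrays and at 1801 and 1730 on the wild type arrays, while at every other probe set the group means lie close together.

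E2f5, the repressor gene of the family with 3 probe sets, all kept, gave readings that differed in size. At 1447625_at E2f5 read 1801 and 1730 in wild type and 7928 and 4428 in the knockout. Both knockout arrays were far above both wild type arrays, and they were also far from each other. The means were 1766 ± 50.2 in wild type and 6178 ± 2475 in the knockout (SD, n = 2 each), 3.36-fold apart on the log2 scale (log2 1.75, SE 0.27). By size this difference ranked 19 among the 22519 kept probe sets, and it fell just short of a call, with a limma adjusted p = 0.051. Among kept probe sets, 0.32% were at least 2-fold higher in the knockout with no overlap, as this one was.

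The other E2f5 probe sets did not show a difference of that size. At 1417444_at the signal was 2573 and 2191 in wild type and 2468 and 2986 in the knockout. These groups overlapped, since the first knockout array lay between the wild type arrays, and the log2 difference was 0.19 (SE 0.13, limma adjusted p = 0.41), with 0.056 to 0.33 when 1 array was left out. At 1460207_s_at it was 977 and 922 in wild type and 1088 and 1241 in the knockout. Here both knockout arrays were above both wild type arrays, by 1.23-fold (log2 0.29, SE 0.093, limma adjusted p = 0.14), with 0.20 to 0.39 when 1 array was left out. All 3 probe sets thus had a higher knockout mean, with sizes from 0.19 to 1.75 on the log2 scale.

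The order of the knockout arrays also differed between the E2f5 probe sets. Relative to the wild type mean of its own probe set, 1447625_at was 4.49-fold higher on knockout array 1 and 2.51-fold higher on knockout array 2. The same arrays stood at 1.04-fold and 1.26-fold for 1417444_at, and at 1.15-fold and 1.31-fold for 1460207_s_at. Knockout array 1 was therefore the higher of the pair at the first and the lower at the other 2. The gap between the knockout arrays at 1447625_at was 0.84 (log2), among the 89 largest over the 22519 kept probe sets. The median gap over those probe sets was 0.11. Without knockout replicate 1 the log2 difference of 1447625_at was 1.33, and without knockout replicate 2 it was 2.17. The annotation credits 1417444_at and 1460207_s_at to the same E2f5 cDNA and gives no accession for 1447625_at, so where in E2f5 its probes lie was not tested.

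**Figure D2:**
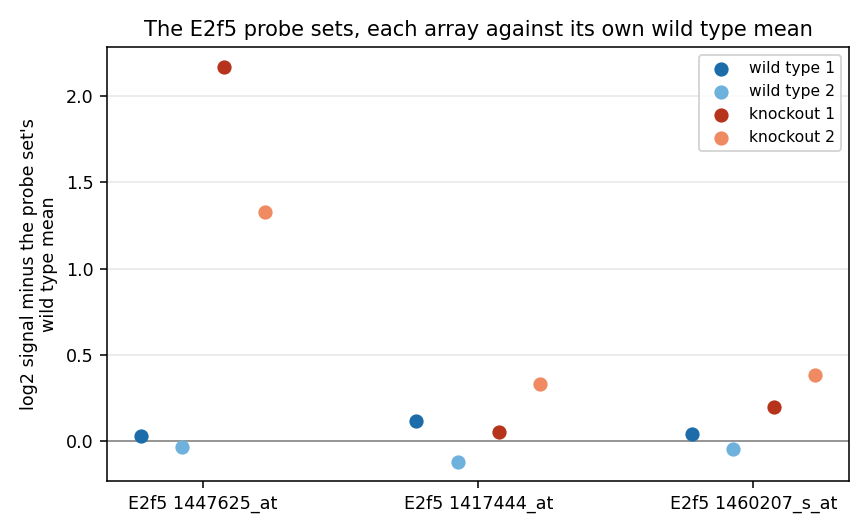
For the 3 E2f5 probe sets (horizontal), each point is 1 array's log2 signal minus the wild type mean of that probe set (vertical). At 1447625_at the knockout arrays stand at 2.17 and 1.33, and at the other 2 probe sets no array is above 0.39.

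Several sums of cell type markers did not overlap between genotypes, lower in the knockout for spermatids and higher for the others. Summed over the measured markers, the 10 of 12 for Sertoli cells ranged from 59744 to 61575 in wild type and from 75207 to 77721 in the knockout, and 7 of the 10 were higher. Clu, Ctsl and Ptgds made up most of that sum (log2 0.27, 0.44 and 0.52), the other 7 lay between −0.20 and 0.29, and the list median was 0.05. The 6 of 8 for Leydig cells ranged from 21112 to 21570 and from 24994 to 25687, with 5 higher. Cyp17a1 made up most of that sum, with means of 11992 in wild type and 15165 in the knockout, and the list median was log2 0.26. The 9 of 12 for macrophages ranged from 2703 to 2883 and from 3104 to 3482, with 9 higher. The 12 spermatid markers ranged from 484436 to 501415 in wild type and from 448705 to 463311 in the knockout, with 11 lower. Spermatogonial markers (7 of 12 measured) ranged from 1791 to 1866 and from 1931 to 2067, and 5 were higher. Among them Sohlh2 had means of 244 in wild type and 361 in the knockout, and the list median was log2 0.08. Sums overlapped between genotypes for 12 meiotic markers (58197 to 60755 and 59625 to 65770), 6 of 10 adipocyte markers (988 to 4170 and 1096 to 1798) and 5 of 10 epididymis markers (1093 to 1422 and 1044 to 1366). Within the epididymis list Cuzd1 (192 and 436 against 117 and 129) and Spink8 (17.3 and 150 against 10.1 and 12.7) were lower in the knockout without overlap. Wild type array 2 was the highest at both, and also at the adipocyte markers Fabp4, Car3 and Lpl. Spink8 was kept only through that array, since its signals of 17.3, 10.1 and 12.7 on the others lay under the filter value. Its lack of overlap therefore rests on faint signals. By limma, 1 Sertoli marker (Ptgds) and 1 Leydig marker (Cyp17a1) were called, both higher, and 0 of the others. Neither was called without the trend, with a robust prior or with no filter, where the fit called 0 of all probe sets. Cyp17a1 was also not called with the replicate block (limma adjusted p = 0.0516) or on single-transcript probe sets. With 1 array left out its log2 difference ran from 0.32 to 0.36. No measured marker was at 0. For the actin control, signal at the 3′ end over that at the 5′ end was 2.09 and 1.999 in wild type and 2.43 and 2.18 in the knockout. For the Gapdh control it was 1.041 and 0.990 in wild type and 0.927 and 0.938 in the knockout, the opposite direction. The part of these in any E2F difference was not tested.

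E2f4, the other repressor that works with pocket proteins, has 1 probe set. Its signal was 83.6 and 86.3 in wild type and 73.5 and 75.8 in the knockout. Both knockout arrays were lower, by 1.14-fold (log2 −0.19, SE 0.093, limma adjusted p = 0.29). The difference stayed between −0.21 and −0.14 under every alternative run for it.

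Among the activators, only E2f1 had a kept probe set. At 1431875_a_at it gave 98.7 and 98.0 in wild type and 99.1 and 98.2 in the knockout. The arrays lay between 98.0 and 99.1 and overlapped, with a log2 difference of 0.0047 (SE 0.091), which turned to −0.0044 under quantile normalization and −0.0049 under median centring. The other E2f1 probe sets were under the filter, 1 of them at 24.6 and 25.3 in wild type and 25.8 and 33.3 in the knockout. E2f2 had no signal above 13.6 at its 2 probe sets and E2f3 none above 33.2 at its 2, so both lay under the filter throughout. At 1427462_at of E2f3, 3 of the 4 arrays held the identical value, 33.2.

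E2f6, the repressor that recruits a Polycomb complex to germ cell genes in other tissues, was read at 1 kept probe set. It gave 194 and 133 in wild type and 171 and 188 in the knockout. The wild type arrays enclosed both knockout arrays, and the log2 difference of 0.16 (SE 0.19) ran from −0.11 to 0.43 when 1 array was left out. The second E2f6 probe set gave 3.11 to 3.17 on all arrays.

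The atypical E2Fs were both measured. E2f7 gave 64.8 and 57.1 in wild type and 63.3 and 63.3 in the knockout, which overlapped (log2 0.06, SE 0.11). Left-out arrays moved that difference from −0.03 to 0.15. E2f8 gave 159 and 146 in wild type and 161 and 179 in the knockout. Both knockout arrays were above both wild type arrays, the closest pair by a small step (log2 0.16, SE 0.11, limma adjusted p = 0.43). With 1 array left out it ran from 0.082 to 0.23. Its second probe set stood between 7.74 and 8.55, under the filter.

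The DP genes, whose proteins pair with E2F1 to E2F6, differed in sign. Tfdp1 gave 1071 and 1198 in wild type and 938 and 1009 in the knockout. Both knockout arrays were lower, by 1.17-fold (log2 −0.22, SE 0.090, limma adjusted p = 0.22), and the difference was −0.11 under quantile normalization and ran from −0.30 to −0.14 with 1 array left out. Tfdp2 was read by 3 kept probe sets with the same sign, at log2 0.11, 0.12 and 0.05. At 1443962_at it gave 263 and 238 in wild type and 259 and 282 in the knockout, and at 1435344_at 198 and 184 against 223 and 192. The groups overlapped at both. At 1437174_at it gave 180 and 190 against 190 and 193, with the knockout just above. With 1 array left out the differences ran, in that order, from 0.040 to 0.19, from 0.0085 to 0.23 and from 0.013 to 0.090. The remaining Tfdp2 probe set, at 6.49 to 8.23, was under the filter. Over the family, E2f5 and Tfdp2 were thus the 2 genes with more than 1 kept probe set, and the signs agreed within each.

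The start sites of E2F genes can carry the motif that E2F itself reads. Windows at annotated starts were searched for TTTCCCGC, TTTCGCGC, TTTGCCGC and TTTGGCGC on both strands. Whether these starts are used in testis was not tested, so a window without a match does not show that the gene lacks one. Windows of 250 bases before to 50 after the start were taken from RefSeq (GRCm38.p6), where 8 of the 10 genes matched, with 12 windows. E2f4 and E2f5 had no window there, so neither was searched. Of the 12 windows, 5 windows of 4 genes (E2f2, E2f3, E2f7 and Tfdp1) held a match, against 2.26% of all 32851 such windows. No member window held the TATA box letters TATAAA on either strand, which 13.6% of all windows did. The windows of E2f7 and Tfdp1 are shown, as the genes with both a match and a kept probe set. They are chr10:110745189-110745488 (plus strand) and chr8:13338501-13338800 (plus strand), written in the direction of the gene, with the match in capitals:
E2f7: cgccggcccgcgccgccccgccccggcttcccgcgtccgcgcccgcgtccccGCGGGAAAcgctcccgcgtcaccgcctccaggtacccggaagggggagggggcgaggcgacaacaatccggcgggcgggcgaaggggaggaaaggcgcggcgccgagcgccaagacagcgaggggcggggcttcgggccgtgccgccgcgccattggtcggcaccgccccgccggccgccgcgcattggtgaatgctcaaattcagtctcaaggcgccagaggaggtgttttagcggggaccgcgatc
Tfdp1: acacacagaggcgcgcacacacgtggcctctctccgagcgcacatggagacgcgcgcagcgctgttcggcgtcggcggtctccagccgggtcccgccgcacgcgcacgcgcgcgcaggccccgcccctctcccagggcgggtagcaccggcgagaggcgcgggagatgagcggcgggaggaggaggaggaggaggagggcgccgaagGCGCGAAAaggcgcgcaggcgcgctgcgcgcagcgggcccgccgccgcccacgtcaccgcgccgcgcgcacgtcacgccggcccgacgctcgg
Both matches lie on the strand opposite to the gene, with TTTCCCGC read backwards starting 198 bases before the E2f7 start and TTTCGCGC starting 43 bases before the first Tfdp1 start. A second annotated Tfdp1 start holds the same site. The genes with these matches had log2 differences of 0.06 and −0.22, neither called.

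The genes around E2F were taken from 8 lists written from general knowledge, with each gene read at its brightest kept probe set. Earlier results of these data were known when the lists were chosen, so their counts are given as a description. Of 105 genes listed, 87 were measured, 38 higher and 49 lower, with a median log2 difference of −0.06. Over all 12231 genes the median was −0.05 and 39.33% were higher. Of the 87, 4 were called by limma, 2 higher and 2 lower, which is 4.6%, where 1.73% of all genes were called, 0.54% higher and 1.19% lower. With any 1 array left out, with no filter, or without the variance trend, none of the 4 was called.

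Upstream of E2F, the CDK inhibitor gene Cdkn1c rose. Its signal was 1906 and 2043 in wild type and 3889 and 3757 in the knockout. Both knockout arrays were close to each other and far above wild type, by 1.94-fold (log2 0.95, SE 0.067, limma adjusted p = 0.024), at the only Cdkn1c probe set. It was the 1 called gene among 14 measured of 15 G1 cyclins, their kinases and inhibitors, of which 9 were higher (median log2 0.16, and 0.28 under quantile normalization). Not called in that list were Cdkn2b, for an inhibitor of CDK4 and CDK6 (406 and 475 against 622 and 630, adjusted p = 0.069), and the cyclin gene Ccne1 (214 and 176 against 348 and 283, adjusted p = 0.077). Nor was Cdkn1a, for the p53-responsive inhibitor p21 (93.6 and 96.3 against 161 and 128, limma adjusted p = 0.081). All 3 pocket protein genes were measured and 0 were called. Rbl2, for the pocket protein p130, was 991 and 852 in wild type and 678 and 825 in the knockout (log2 −0.30, limma adjusted p = 0.24). Rb1 was 420 and 603 against 563 and 430, and Rbl1 611 and 673 against 661 and 639, and the groups of both overlapped.

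The MuvB core joins pocket proteins and E2F4 in resting cells and MYB proteins and FOXM1 in dividing ones. Of 8 genes for the core, the MYB proteins and FOXM1, 7 were lower (median log2 −0.34, and −0.30 under quantile normalization). The 1 called gene, Foxm1, is not of the core, whose genes ran from log2 −0.46 (Lin54) to 0.14 (Rbbp4). Foxm1, a transcription factor of mitotic genes, fell from 1321 and 1392 to 828 and 866, a 1.601-fold drop (log2 −0.68, SE 0.073, limma adjusted p = 0.047). Its other 2 kept probe sets were lower by 0.46 and 0.58 (log2) with limma adjusted p of 0.065 and 0.058, and the call was lost under quantile normalization. Lin54, for the DNA-binding MuvB subunit, was 426 and 432 against 321 and 302 (limma adjusted p = 0.062). Mybl1, for the A-MYB factor of spermatocytes, was 490 and 401 against 324 and 291 (limma adjusted p = 0.089). The groups of both were apart but they did not pass the test.

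Downstream, the S phase and replication targets were split in direction. Of 34 genes 28 were measured, 12 higher and 16 lower, with a median log2 difference of −0.05, which turned to 0.01 under quantile normalization. Fen1, the flap endonuclease gene of lagging strand replication, rose from 1593 and 1580 to 3886 and 3159, 2.21-fold (log2 1.14, SE 0.11, limma adjusted p = 0.043). That reading comes from 1436454_x_at, for which the annotation gives no accession. The other Fen1 probe set gave 215 and 216 against 289 and 318, 1.404-fold apart with no overlap (limma adjusted p = 0.066). Rrm2, for the small subunit of ribonucleotide reductase, fell from 396 and 402 to 240 and 235, a 1.68-fold drop (log2 −0.75, SE 0.083, limma adjusted p = 0.047). The other Rrm2 probe sets were lower by 0.39 and 0.38 (log2) and were not called. Pcna, for the replication clamp, was 16563 and 16636 against 13717 and 14546 (limma adjusted p = 0.078), and Uhrf1 2398 and 2568 against 1741 and 1988 (limma adjusted p = 0.074). Dut, for the dUTPase, was 1386 and 1437 against 1782 and 1931 (limma adjusted p = 0.063).

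Mitotic genes under E2F and MuvB were mostly lower without a call. Of 15 genes 14 were measured, 11 of them lower, with a median log2 difference of −0.15, which was −0.05 under quantile normalization. Plk1, for a mitotic kinase, was 1303 and 1261 in wild type and 947 and 909 in the knockout (log2 −0.47, SE 0.070, limma adjusted p = 0.051). Cdk1 was 2184 and 2037 against 1829 and 1678 (limma adjusted p = 0.12), while the proliferation marker gene Mki67 was 641 and 596 against 594 and 647. The groups were apart for the first 2 and overlapped for Mki67.

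**Figure D3:**
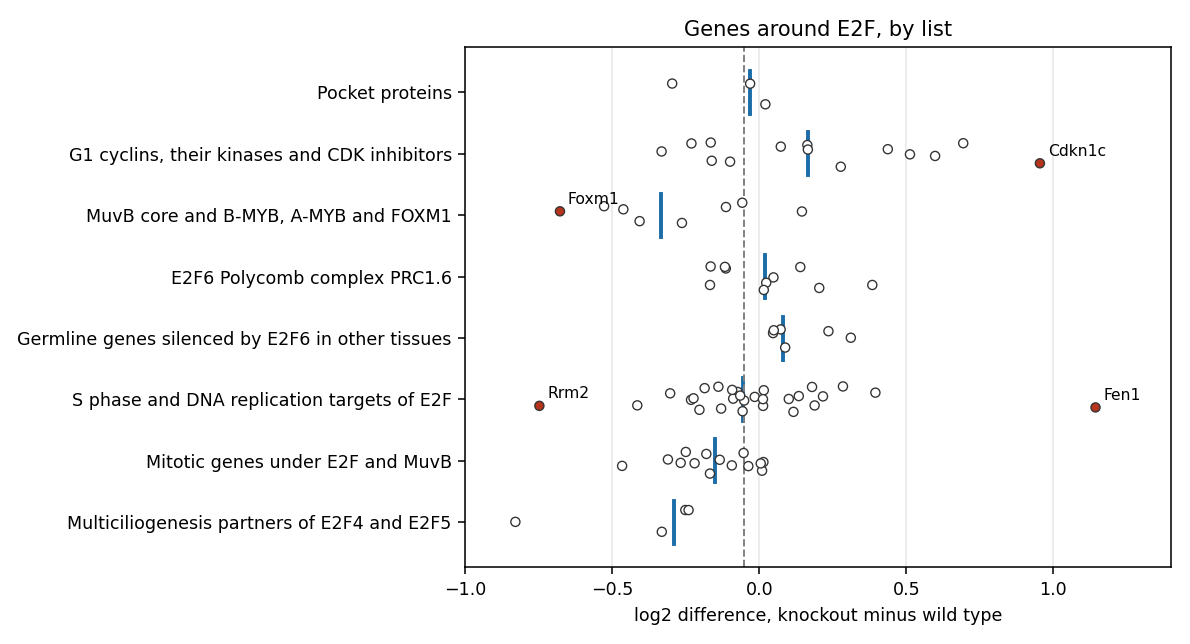
Each point is 1 gene at its brightest kept probe set, placed by its log2 difference between knockout and wild type (horizontal), in 8 lists of genes around E2F; filled points were called by limma, blue bars are list medians and the dashed line is the median over all 12231 genes. The called genes are Cdkn1c and Fen1 on the right and Foxm1 and Rrm2 on the left.

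No partner gene of E2F6 was called. Of 12 genes of its Polycomb complex, PRC1.6, 10 were measured, 6 higher and 4 lower (median log2 0.02, and 0.09 under quantile normalization). Yaf2, for a subunit that binds RING proteins, was 525 and 597 against 761 and 701 (limma adjusted p = 0.099). The germ cell genes that E2F6 keeps silent in other tissues were measured for 6 of 8, all 6 with a higher knockout mean (median log2 0.08, and 0.20 under quantile normalization), and 0 were called. Tex101, for a germ cell surface protein, was 5135 and 4915 against 5985 and 6488 (limma adjusted p = 0.073). The cohesin gene Stag3 was 6240 and 6149 against 6838 and 6334 (log2 0.09, SE 0.061).

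Genes listed for the making of multiciliated cells, in which E2F4 and E2F5 take part, were measured for 4 of 10. All 4 were lower, and 0 were called. Foxj1, for a transcription factor of motile cilia, was 1365 and 1026 in wild type and 547 and 810 in the knockout (log2 −0.83, SE 0.23, limma adjusted p = 0.11). Rfx2, for a ciliary factor that spermatids also use, was 2474 and 2200 against 1746 and 1966 (limma adjusted p = 0.12). Deup1, for a centriole assembly protein, was 7887 and 7133 against 6156 and 6443 (limma adjusted p = 0.11). Both knockout arrays were below both wild type arrays for each of these, while the E2f5 probe sets had higher knockout means. Any link of these genes to E2f5 was not tested.

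**Figure D4:**
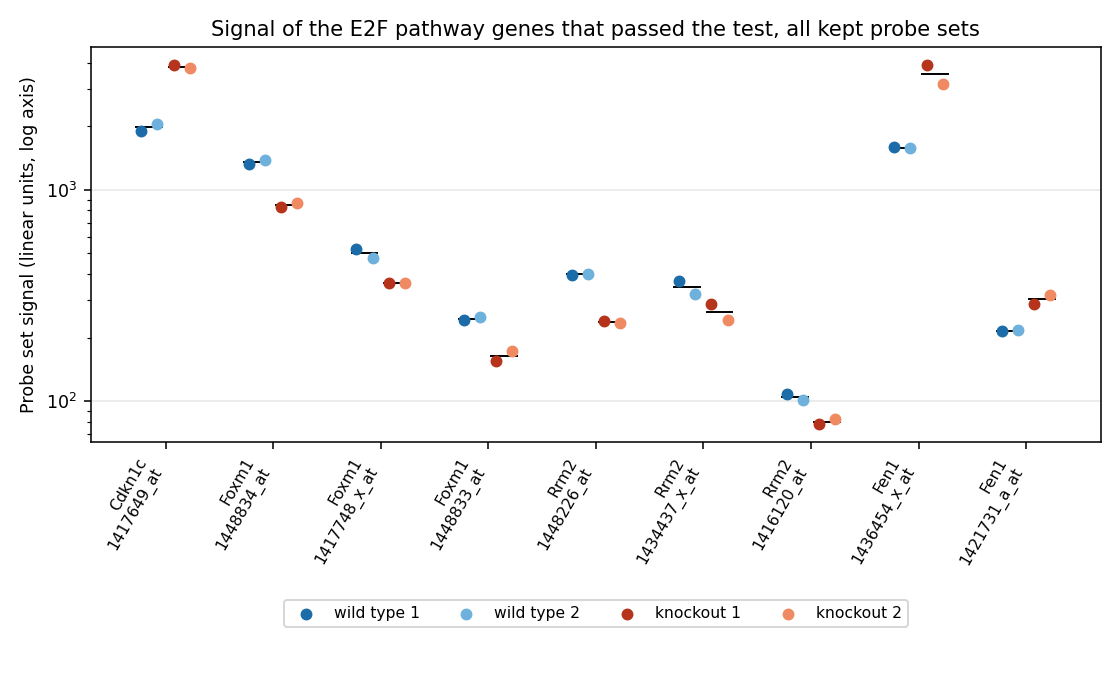
Signal on each of the 4 arrays (vertical, linear units on a log axis) for every kept probe set of Cdkn1c, Foxm1, Rrm2 and Fen1, with black bars at group means. Knockout arrays are above wild type at the Cdkn1c and Fen1 probe sets and below at those of Foxm1 and Rrm2, whose other probe sets show the same side with smaller differences.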

How the data were processed

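RNA from whole testis was measured on 2 wild type and 2 Taf7l knockout Affymetrix arrays. The deposited table gives each probe set's intensity on a linear scale. Per the submitters' processing notes it was made with MAS5, with no version or scaling target, and the normalization is not settled because arrays share many exact values. The log2 of each signal was used, with no offset. Gene names came from the platform annotation and were brought up to date with RefSeq (GRCm38.p6): 34945 had 1 gene, 932 several and 9160 none. The 22519 with a mean signal at or above the median were fitted with limma 3.58.1 in R 4.3.3 (eBayes with a trend, genotype as the only term), two-sided, with Benjamini-Hochberg adjustment and calls at an adjusted p under 0.05. The fit was tested on simulated data. With 2 arrays a group, the smallest p of an exact permutation test is 0.333. The number of arrays limits the precision. Median mouse signals were 45.2 to 45.7.

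The members and lists were chosen with earlier results of these data known. Named genes are all 10 members, Taf7l, each called gene and the 3 probe sets most like the member with the largest difference. By smallest p, at most 4 of each pathway list and fewer of each marker list were added. Pcna, Mki67, Clu, Lpl, Fabp4 and Car3 fall outside this rule and were picked with their values already known. The neighbours of E2f5 were added by position. Alternatives changed the scaling, offset, filter, prior, threshold, choice of probe sets, replicate block or arrays.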

Additional observations from a re-analysis of the deposited data

How the results depend on the processing

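The count of member probe sets called was 1 of 12 rather than 0 with median centring, the replicate block and an adjusted p under 0.10. Centring on kept probe sets (chosen after seeing the data) also gave 1 of 12. The count was 1 of 4 with the 75th percentile filter and 1 of 8 with the brightest probe set of each gene. In each case the called probe set was that of E2f5 at 1447625_at. Its limma adjusted p ran from 0.0053 to 0.35 over 16 alternatives and its log2 difference from 1.33 to 2.17. All probe sets called numbered 312 as deposited (32.1% higher), 148 with quantile normalization (61.5%), 646 with median centring (22.8%), 697 with centring on kept probe sets (40.6%), 0 with no filter (6192 had an unadjusted p under 0.05), 2375 at the stricter filter, 36 without a trend, 2628 at an adjusted p under 0.10, 805 at the brightest probe set of each gene, 179 on single-transcript probe sets, 541 with the replicate block, and 0 to 0 with 1 array left out, with 3084 to 5500 at an unadjusted p under 0.05. Pathway genes called numbered 4 of 87, against 0 of 97 with no filter and 0 of 87 without a trend. They numbered 18 of 69 with the 75th percentile filter, where 2375 of all 11260 probe sets were called. At an adjusted p under 0.10 they numbered 16 of 87, where 2628 of all 22519 were called. At the brightest probe set of each gene they numbered 7 of 87, where 805 of all 12231 were called. The fits with 1 array left out take the spread of a lone array from the genotype with a pair. The cause of these changes was not tested. Rb1 (−0.03) changed sign to 0.036 with quantile normalization and to 0.014 with centring on kept probe sets, and ran from −0.29 to 0.23 with 1 array left out. Rbl1 (0.02) ran from −0.050 to 0.090 with 1 array left out. Same-numbered arrays deviated together with a correlation of 0.03 over 22519 probe sets, so the numbers were not taken to pair the arrays.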

Other observations

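Among kept probe sets of other genes, the 3 whose 4 arrays were most like 1447625_at of E2f5, each centred on its own mean log2, were for Pik3cd (1443798_at), Aif1l (1424262_at) and Polr3k (1456731_x_at). Their root mean square differences from it over the 4 arrays were 0.077, 0.17 and 0.18 on the log2 scale. Pik3cd, for a phosphoinositide 3-kinase subunit, had a signal of 642 and 682 in wild type and 3125 and 1826 in the knockout. Aif1l, for an actin-binding protein, had 996 and 1027 in wild type and 3887 and 1935 in the knockout. Polr3k, for a subunit of RNA polymerase III, had 504 and 454 in wild type and 1658 and 969 in the knockout. As at E2f5, the first knockout array was the higher of the pair at all 3, a likeness over 4 arrays that the choice itself fixes.

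The protein-coding genes next to E2f5 on chromosome 3, chosen by position after the values of E2f5 were seen, were not called where they were measured. Lrrcc1, on one side, had 14350 and 14138 in wild type and 13276 and 13456 in the knockout at its brightest probe set (log2 −0.09, limma adjusted p = 0.30). At its other probe sets the groups overlapped, with log2 differences of 0.13 and −0.11. Rbis, on the other side, had 1387 and 1387 in wild type, an identical value, and 1139 and 1488 in the knockout at its brighter probe set (log2 −0.09, limma adjusted p = 0.73). The fainter Rbis probe set gave 46.5 and 47.6 against 52.0 and 48.6, higher in the knockout (log2 0.10). Car13, beyond Rbis, lay under the filter at its 3 probe sets, with 7.83 and 9.44 in wild type and 17.7 and 30.8 in the knockout at 1421307_at. The other 2 gave 11.7 and 18.5 against 13.3 and 24.1, which overlapped, and 9.22 and 8.59 against 8.32 and 8.501, which were lower in the knockout.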
